A study of Mus musculus with 4 samples.

Results

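The response of brain cells to systemic bacterial lipopolysaccharide (LPS) was compared between 7 cell classes of APOE3 mice, to find which genes changed in every class and which in a single one. Cells were chosen as barcodes with at least 1000 unique molecular identifiers (UMIs, each standing for 1 captured RNA molecule) and at most 20% of UMIs from mitochondrial genes. Each was given the class whose 4-gene set had at least 3 genes detected and the most UMIs. In all, 27174 of the 31510 barcodes of the APOE3 libraries received a class, out of 74993 barcodes in the whole series. The mice were males in which the mouse Apoe gene is replaced, by gene targeting, with human APOE3. One group had received 5 mg/kg LPS by intraperitoneal injection and was killed 24 h later, and the other is labelled NaCl. A second pair of libraries from APOE4 mice, with the same agents, gave values for the same genes. Each library was made from a glia-enriched suspension of 3 mice, and no value can be assigned to a mouse. With 1 library per group there is no replicate, no test was made, and the 95% intervals below cover counting error only.

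LPS, a component of the outer membrane of Gram-negative bacteria, is recognised by the receptor TLR4. This receptor signals through NF-kB, which drives cytokines and its own inhibitors, and through interferon regulatory factors, which lead to interferon secretion. Interferons act on neighbouring cells through STAT proteins and raise antiviral and antigen-presenting genes. Systemic inflammation also raises circulating corticosteroids, whose receptor binds DNA in most cell types, so the brain receives several signals at once.

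The APOE3 NaCl library held 78513245 UMIs in 15432 barcodes and the APOE3 LPS library 114378032 in 16078. They shared 69 barcode sequences, or 0.447% of the smaller library. The classes held 4683 astrocytes in NaCl and 3558 in LPS, 3918 and 5636 microglia, 2706 and 2557 oligodendrocytes, and 1187 and 1226 endothelial cells. There were 480 and 399 choroid plexus cells, 351 and 333 neurons, and 58 and 82 fibroblasts, so fibroblasts rest on the fewest cells. A neuron class was present although the labels describe the cells as non-neuronal. Marker genes that the assignment did not use were highest in their own class for each of the 7 classes in both libraries. Depth differed between the libraries: the median cell had 4405.5 UMIs in NaCl and 7723.5 in LPS among microglia, but 7963 and 6144 in the choroid plexus. A second gene set was also detected in 10.2% of the classified barcodes in NaCl and 12.1% in LPS. This share went from 15.5% to 23.1% among endothelial cells and from 6.90% to 19.5% among fibroblasts. Neutrophil genes marked 4 barcodes outside the classes in NaCl and 96 in LPS, and 1 and 52 barcodes within the microglia class. Border macrophage genes marked 137 of 3918 microglia in NaCl and 186 of 5636 in LPS. Ependymal genes marked 96 of 480 choroid plexus barcodes in NaCl and 51 of 399 in LPS. The part of these barcodes in the class values was not tested.

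UMIs were summed per class and library and scaled to the total of that class (CPM). A gene was measured in a class with at least 20 UMIs over both libraries. It was called higher or lower when its CPM differed at least 2-fold, the interval of the ratio excluded 1, and its level exceeded an allowance for RNA released from other cells. The allowance was 2 times the level that the largest share of another class's marker genes would bring in from the class or group where the gene was highest. By this rule 541 of 14918 measured genes were higher in oligodendrocytes (3.63%) and 476 were lower (3.19%). Microglia had 370 higher (2.14%) and 604 lower (3.49%), and endothelial cells 387 (2.65%) and 424 (2.9%). Neurons had 242 (1.77%) and 288 (2.11%), fibroblasts 198 (2.16%) and 383 (4.18%), and astrocytes 165 (0.958%) and 245 (1.42%). For astrocytes the share behind the allowance came from endothelial genes. It was 5.49% in NaCl, used for lower calls, and 9.80% in LPS, used for higher calls, so higher calls faced a stricter limit. The choroid plexus had the fewest, 32 higher (0.271%) and 76 lower (0.643%), and also the largest allowance. Its monitor share was 27.2% in NaCl and 25.1% in LPS, from fibroblast genes such as Slc6a13 and Igf2. In this share, expression of these genes by the choroid plexus itself and RNA from fibroblasts cannot be told apart. The allowance may therefore be stricter than intended, and few calls there need not mean a weak response. The median log2 ratio of genes with at least 50 UMIs was -0.21 in the choroid plexus, -0.15 in fibroblasts and -0.13 in microglia, and between -0.08 and -0.05 in the other 4 classes. Changes below are relative to a class total, not to these medians, and each pair of levels is given as NaCl and then LPS.

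**Figure D1:**
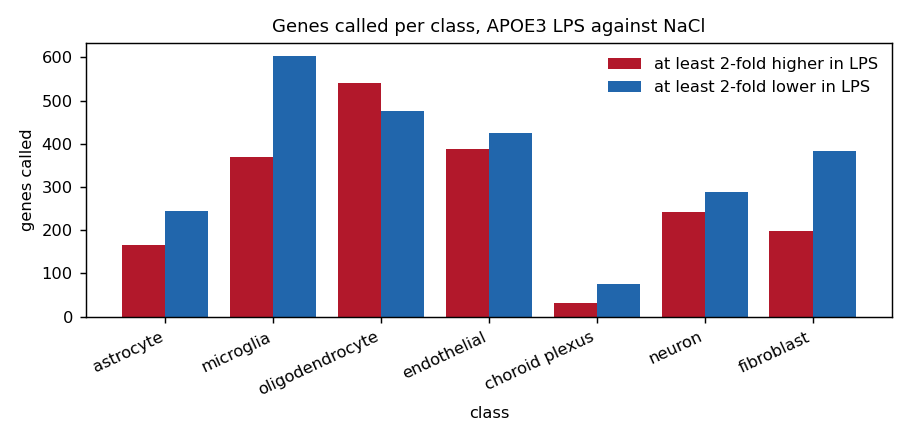
Number of genes (y axis) called at least 2-fold higher or lower in LPS than in NaCl, by class (x axis), in the APOE3 libraries. With the allowance above, oligodendrocytes had the most higher calls (541), microglia the most lower calls (604) and the choroid plexus the fewest of either. Parts of this order changed with the allowance added below.

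No gene was called in all classes. Of 8370 genes measured in all 7, 0 were higher in all (0%) and 0 lower (0%). Higher in at least 1 class were 570 (6.81%), in at least 2 classes 80 (0.956%), in at least 3 classes 17 (0.203%), in at least 4 classes 4 (0.0478%) and in 5 classes 1 (0.0119%). Lower in at least 1 class were 624 (7.46%), in at least 2 classes 46 (0.55%), in at least 3 classes 6 (0.0717%) and in 4 classes 1 (0.0119%). The gene higher in 5 classes was Fkbp5, a co-chaperone of the glucocorticoid receptor and a standard target of corticosteroids. It went from 13.5 to 173 CPM in astrocytes, 12.8-fold (95% interval 11.3 to 14.5), and from 25.8 to 368 CPM in oligodendrocytes, 14.3-fold (95% interval 12.9 to 15.8). It went from 17.9 to 181 CPM in endothelial cells, 10.1-fold (95% interval 8.55 to 12), from 133 to 398 CPM in microglia, 3.00-fold (95% interval 2.88 to 3.13), and from 26.7 to 83.8 CPM in neurons, 3.13-fold (95% interval 2.44 to 4.07). In fibroblasts it was already at 407 CPM in NaCl and reached 627, 1.54-fold (95% interval 1.32 to 1.80). In the choroid plexus it went from 4.39 to 28.2 CPM and did not pass the allowance. The class with the highest Fkbp5 in NaCl had the smallest ratio of the 7. In the APOE4 pair Fkbp5 was higher in all 6 classes compared, from 3.12-fold in neurons to 21.3-fold in astrocytes (fibroblasts numbered under 50 there).

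The genes called higher in 4 classes were Lgals3bp, Rhoj and Slc39a14, and Usp18, which was not measured in neurons. Usp18, an interferon-induced protease that removes ISG15 and damps interferon signalling, went from 3.82 to 17.4 CPM in microglia, 4.56-fold (95% interval 3.62 to 5.83), and from 1.90 to 8.01 CPM in astrocytes, 4.23-fold (95% interval 2.96 to 6.15). Endothelial cells held 30.7 CPM of Usp18 in NaCl, more than any other class, and 34.5 CPM in LPS, 1.12-fold (95% interval 0.959 to 1.32). Slc39a14, a zinc and iron importer of the plasma membrane, went from 9.40 to 42.8 CPM in oligodendrocytes, 4.55-fold (95% interval 3.80 to 5.48), and from 17.2 to 67.7 CPM in microglia, 3.94-fold (95% interval 3.53 to 4.42). Rhoj, a small GTPase known from endothelial cells, went from 47.7 to 305 CPM in oligodendrocytes, 6.41-fold (95% interval 5.93 to 6.94), and from 139 to 325 CPM in endothelial cells, 2.34-fold (95% interval 2.19 to 2.5). Among lower genes, the secreted growth factor Ptn was called in 4 classes. It went from 2083 to 923 CPM in astrocytes, 2.26-fold (95% interval 2.22 to 2.30) lower, and from 3361 to 998 CPM in fibroblasts, 3.37-fold (95% interval 3.14 to 3.62) lower. The predicted gene Gm10800 was lower in 5 classes but not measured in the choroid plexus or fibroblasts, and Gm10801 was lower in 4 and not measured in fibroblasts. In the APOE4 pair they were lower by at least 2-fold in endothelial cells, but in oligodendrocytes Gm10800 was 2.30-fold and Gm10801 2.25-fold higher.

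The allowance decides how many genes count as shared. Its largest shares came from single pairs of classes, such as fibroblast genes in the choroid plexus, and were applied to genes of every source. A source-matched allowance was therefore added after these counts had been seen: for each source, the median share of its markers in the class, times the gene's level in that source, times 2. The counts of genes in at least 6 classes were compared under several combinations before 1 was chosen for description. With a 2-fold limit they were 0 higher and 0 lower under the first allowance, 6 and 1 under the source-matched one, and 27 and 4 with none. With a 1.5-fold limit and the source-matched allowance, 16 genes were higher (0.191% of 8370) and 11 lower, of which 10 were among those 8370 (0.119%). These 27 genes are described next as the broad genes, and their number is a result of that choice. Per class, that rule called 4% of measured genes higher and 4.18% lower in astrocytes, 7.28% and 12.1% in microglia, and 8.13% and 10.5% in oligodendrocytes. It called 7.3% and 10.7% in endothelial cells, 2.74% and 12.3% in the choroid plexus, 4.95% and 6.58% in neurons, and 5.2% and 11.1% in fibroblasts. At 2-fold it called 4.05% and 4.74% in microglia, 4.54% and 4.47% in oligodendrocytes, and 3.92% and 4.58% in endothelial cells. The other 4 classes had 1.97% and 1.42% (astrocytes), 1.45% and 3.84% (choroid plexus), 2.45% and 2.47% (neurons), and 3.47% and 5.13% (fibroblasts). By number, microglia then had the most higher calls, 700 against 678 in oligodendrocytes. Astrocytes had the fewest lower calls, 244 against 454 in the choroid plexus. Astrocytes also had more higher (339) than lower (244) calls, the reverse of the first allowance. Leaving out barcodes that the doublet caller Scrublet marked left 7 of the 16 higher genes and 9 of the 11 lower ones in at least 6 classes, and 15 and 10 in at least 5. The genes that dropped below 6 classes were Plac8, Il18bp, Bst2, Serpina3n, Tspo, Cebpd, Nfkbiz, H2-D1, H2-T23, Ciart and Gamt. Thinning every cell to 1000 UMIs left 0 and 1, with only 8 and 4 of them still measured in 6 classes. Leaving out cells with a second gene set left 10 and 5. With ratios centred on the class median, all 16 higher genes and 7 of the lower ones were called, without Pabpc4, Gamt, Snx32 and mt-Nd4l.

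In all 7 classes, 2 genes were higher (0.0239%), Lgals3bp and H2-T23, and 1 was lower (0.0119%), Dbp. The other 14 broad higher genes were B2m, H2-K1, H2-D1, Irf7, Bst2, Il18bp, Cebpb, Cebpd, Nfkbiz, Fkbp5, Cdkn1a, Serpina3n, Tspo and Plac8. The other 10 lower genes were Ciart, Per3, Col27a1, Pabpc4, Gamt, Serf1, Snhg9, Snx32, mt-Atp8 and mt-Nd4l. In the APOE4 pair, which shares no library with the APOE3 pair, 13 of the 16 higher genes were called by the same rule in at least 5 of 6 classes and 9 in all 6. Over all genes of that pair, 0.921% were higher in at least 5 classes and 0.287% in all 6. Of the 11 lower genes, 4 were called in at least 5 classes and 2, Dbp and Gamt, in all 6, against 0.0495% and 0.0198% of all genes. Pabpc4 and Snhg9 were called lower in 0 of the 6 classes there. The APOE4 LPS library was shallower, with a median of 1292 UMIs per deposited barcode, and 18.8% of its classified barcodes held a second gene set.

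**Figure D2:**
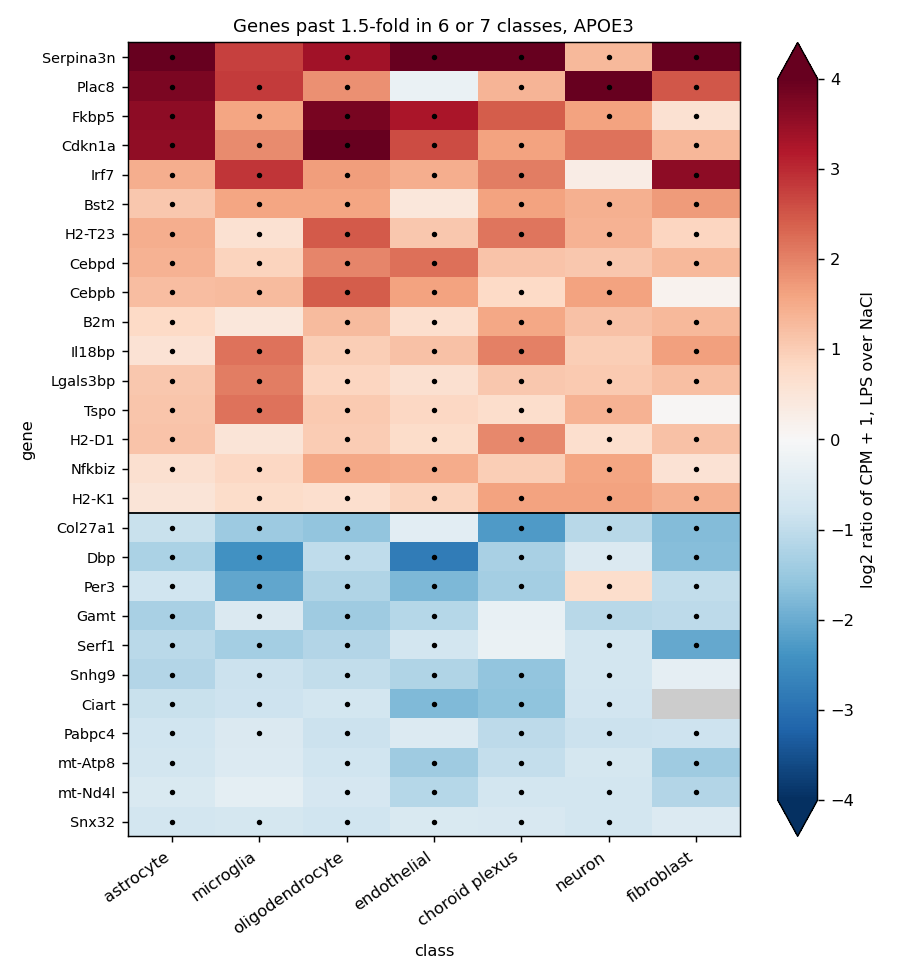
Log2 of the ratio of CPM + 1 between APOE3 LPS and NaCl for each broad gene (rows) in each class (columns), with red for higher and blue for lower, colours capped at 4 in each direction, and grey for not measured. A dot marks a call at 1.5-fold with the source-matched allowance; Lgals3bp, H2-T23 and Dbp carry 7 dots each.

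Promoter sequence is shown for 5 of the 8 broad genes whose promoters hold a searched motif, 4 that were higher and Ciart, which was lower. They were chosen after the matches were seen, as examples of each motif. The sequences are the 250 bases before the transcription start, from RefSeq on GRCm38.p6, the same assembly as mm10. Of the 33 genes broad by either rule, 23 matched an entry. Exact matches on both strands were sought for 5 motifs: the interferon-stimulated response element, the kappa-B site, the glucocorticoid response element, the STAT site TTCNNNGAA and the E-box CACGTG, the site of clock factors. Capitals mark the matches. The promoter of B2m (chr2:122147437-122147686, plus strand) holds an interferon element and a kappa-B site, that of Bst2 (chr8:71537473-71537722, minus strand) 2 interferon elements and a STAT site that overlap, and that of H2-T23 (chr17:36032702-36032951, minus strand) an interferon element. Serpina3n (chr12:104406458-104406707, plus strand) holds a glucocorticoid element and Ciart (chr3:95882229-95882478, minus strand), a clock gene that was lower, holds 3 E-boxes.
B2m: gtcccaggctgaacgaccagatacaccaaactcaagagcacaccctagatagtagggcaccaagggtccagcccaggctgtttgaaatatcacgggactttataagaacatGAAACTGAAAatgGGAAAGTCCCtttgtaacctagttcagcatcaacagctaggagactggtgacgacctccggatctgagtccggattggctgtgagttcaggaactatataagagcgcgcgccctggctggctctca
Bst2: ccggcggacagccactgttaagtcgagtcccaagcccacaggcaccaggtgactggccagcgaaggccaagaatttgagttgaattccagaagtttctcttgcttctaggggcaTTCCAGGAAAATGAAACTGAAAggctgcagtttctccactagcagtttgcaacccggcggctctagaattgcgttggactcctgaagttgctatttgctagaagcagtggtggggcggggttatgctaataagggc
H2-T23: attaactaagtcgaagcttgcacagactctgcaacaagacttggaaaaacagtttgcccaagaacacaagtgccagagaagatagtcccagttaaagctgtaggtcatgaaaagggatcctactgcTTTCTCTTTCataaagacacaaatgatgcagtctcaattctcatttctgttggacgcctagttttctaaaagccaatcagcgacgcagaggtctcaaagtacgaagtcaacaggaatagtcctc
Serpina3n: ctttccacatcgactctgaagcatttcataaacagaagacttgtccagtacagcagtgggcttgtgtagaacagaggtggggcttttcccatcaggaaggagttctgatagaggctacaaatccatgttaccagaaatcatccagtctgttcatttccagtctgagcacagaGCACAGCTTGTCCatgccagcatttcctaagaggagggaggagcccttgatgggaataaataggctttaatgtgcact
Ciart: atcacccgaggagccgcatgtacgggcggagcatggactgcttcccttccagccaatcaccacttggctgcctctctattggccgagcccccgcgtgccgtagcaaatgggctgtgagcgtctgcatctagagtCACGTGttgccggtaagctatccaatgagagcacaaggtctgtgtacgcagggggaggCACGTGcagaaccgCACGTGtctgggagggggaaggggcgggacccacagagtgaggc

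Over all 27025 promoters of the table, 3.04% held the interferon element, 7.18% the STAT site, 1.17% the kappa-B site, 0.381% the glucocorticoid element and 6.05% the E-box. Of the 14 matched genes that were higher, 3 held the interferon element, 1 the STAT site, 1 the kappa-B site, 1 the glucocorticoid element and 1, Fkbp5, the E-box. Of the 9 matched genes that were lower, Ciart and Snhg9 held the E-box and Dbp a STAT site. A match describes the letters of this window and is not evidence of binding.

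Antigen presentation through MHC class I supplied 4 broad members. B2m, the invariant chain of every class I molecule, went from 99.3 to 291 CPM in the choroid plexus, 2.93-fold (95% interval 2.63 to 3.26), and from 423 to 1049.5 CPM in fibroblasts, 2.48-fold (95% interval 2.15 to 2.88). It went from 39.8 to 98.2 CPM in oligodendrocytes, 2.46-fold (95% interval 2.25 to 2.71), and from 43.7 to 101 CPM in neurons, 2.30-fold (95% interval 1.87 to 2.84). In microglia B2m was at 1348 CPM in NaCl, the highest of the 7 classes, and 1851 in LPS, 1.37-fold (95% interval 1.35 to 1.39), which missed the 1.5-fold limit. H2-T23, the non-classical class I molecule Qa-1 recognised by NKG2A receptors, went from 3.04 to 21.0 CPM in oligodendrocytes, 6.91-fold (95% interval 5.08 to 9.59), and from 16.8 to 77.2 CPM in the choroid plexus, 4.59-fold (95% interval 3.59 to 5.92). In astrocytes it went from 10.6 to 30.4 CPM, 2.88-fold (95% interval 2.46 to 3.38), and its smallest ratio was in microglia, from 121 to 185 CPM, 1.53-fold. The classical heavy chain H2-D1 went from 30.4 to 117 CPM in the choroid plexus, 3.86-fold (95% interval 3.20 to 4.67), and from 368 to 531 CPM in microglia, 1.44-fold (95% interval 1.41 to 1.48). H2-K1 went from 11.4 to 36.7 CPM in neurons, 3.22-fold (95% interval 2.19 to 4.85), and from 116 to 165 CPM in astrocytes, 1.43-fold (95% interval 1.35 to 1.51). Where resting class I was low, as in oligodendrocytes, neurons and the choroid plexus, levels of B2m and of H2-D1 in LPS were under those of microglia in NaCl. In APOE4 microglia the ratio was 1.11-fold for B2m and 0.993-fold for H2-T23, neither called, while H2-T23 was 26.6-fold higher in APOE4 oligodendrocytes. These heavy chains share sequence with one another, and how reads common to several copies were counted is not given in the sources used here.

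Interferon-induced genes supplied 3 more broad members. Lgals3bp, a secreted glycoprotein that binds galectins, went from 69.0 to 286 CPM in microglia, 4.14-fold (95% interval 3.92 to 4.38), and from 106 to 225 CPM in the choroid plexus, 2.12-fold (95% interval 1.90 to 2.37). It went from 39.2 to 84.3 CPM in astrocytes, 2.15-fold (95% interval 1.98 to 2.34), from 83.8 to 196 CPM in fibroblasts, 2.33-fold (95% interval 1.68 to 3.31), and from 5.54 to 12.6 CPM in neurons, 2.27-fold (95% interval 1.25 to 4.28). Oligodendrocytes went from 3.11 to 6.43 CPM, 2.07-fold (95% interval 1.46 to 2.96), and endothelial cells from 45.4 to 72.1 CPM, 1.59-fold (95% interval 1.40 to 1.79), the smallest of the 7 ratios. Irf7, the transcription factor that amplifies type I interferon production, went from 3.19 to 29.4 CPM in microglia, 9.24-fold (95% interval 7.21 to 12), and from 7.98 to 106 CPM in fibroblasts, 13.3-fold (95% interval 5.10 to 49.6). In neurons Irf7 was at 2.93 and 3.87 CPM, with an interval that included 1, 1.32-fold (95% interval 0.510 to 3.54). Bst2, also called tetherin, which holds enveloped virus particles on the cell surface, went from 136 to 448 CPM in fibroblasts, 3.31-fold (95% interval 2.57 to 4.31), and from 109 to 328 CPM in microglia, 3.01-fold (95% interval 2.88 to 3.15). Its ratio in endothelial cells, from 124 to 169 CPM, 1.37-fold (95% interval 1.27 to 1.47), fell short of the limit. All 3 genes were called in each of the 6 APOE4 classes. Il18bp, a secreted inhibitor of interleukin-18, went from 19.9 to 64.3 CPM in fibroblasts, 3.22-fold (95% interval 1.67 to 6.95), and from 5.54 to 25.2 CPM in the choroid plexus, 4.55-fold (95% interval 2.96 to 7.20).

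Transcription factors of the acute-phase response formed a further group. Cebpb went from 7.08 to 42.5 CPM in oligodendrocytes, 6.0-fold (95% interval 4.90 to 7.41), and from 34.1 to 106 CPM in endothelial cells, 3.10-fold (95% interval 2.72 to 3.54). Microglia, where it was at 441 CPM in NaCl, reached 1056, 2.40-fold (95% interval 2.34 to 2.45). In fibroblasts Cebpb was at 217 and 239.9 CPM, 1.10-fold (95% interval 0.886 to 1.38), an interval that included 1. Cebpd went from 74.2 to 343 CPM in endothelial cells, 4.62-fold (95% interval 4.25 to 5.04), and from 17.5 to 71.0 CPM in oligodendrocytes, 4.07-fold (95% interval 3.56 to 4.66). Nfkbiz, a nuclear cofactor of NF-kB needed for a second wave of cytokine genes, went from 6.88 to 22.2 CPM in oligodendrocytes, 3.22-fold (95% interval 2.59 to 4.03), and from 270.3 to 485 CPM in microglia, 1.80-fold (95% interval 1.74 to 1.85). Both Cebp genes were called in all 6 APOE4 classes and Nfkbiz in 4.

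Cdkn1a, the cell cycle inhibitor p21, differed most between classes among the broad genes with UMIs in every sum. In oligodendrocytes it went from 15.1 to 1556 CPM, 103-fold (95% interval 90.5 to 118). In astrocytes it went from 18.9 to 232 CPM, 12.3-fold (95% interval 11.1 to 13.7), in endothelial cells from 104 to 643 CPM, 6.16-fold (95% interval 5.74 to 6.62), and in microglia from 37.2 to 141 CPM, 3.80-fold (95% interval 3.53 to 4.10). Fibroblasts went from 39.9 to 101 CPM, 2.52-fold (95% interval 1.57 to 4.26), and the choroid plexus from 11.5 to 37.1 CPM, 3.24-fold (95% interval 2.36 to 4.48). Oligodendrocytes moved from among the lowest levels of Cdkn1a to the highest of the 7 classes. The APOE4 pair gave from 13.8 to 1595 CPM in oligodendrocytes, 115-fold, and between 5.68-fold and 21.0-fold in the other 5 classes.

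The remaining broad higher genes were Serpina3n, Tspo and Plac8. Serpina3n, a secreted serine protease inhibitor typical of reactive astrocytes, went from 12.5 to 412 CPM in astrocytes, 33.0-fold (95% interval 29.2 to 37.5), and from 32.4 to 341 CPM in oligodendrocytes, 10.5-fold (95% interval 9.60 to 11.6). In the choroid plexus it went from 0.382 to 212 CPM, and in fibroblasts from 0 UMIs to 75.7 CPM, at least 12.6-fold higher against a floor of 3 UMIs in the class. In microglia its 37.4 CPM in LPS did not exceed the source-matched allowance of 39.2 CPM. Tspo, the outer mitochondrial membrane protein imaged as a marker of brain inflammation, went from 115 to 517 CPM in microglia, 4.50-fold (95% interval 4.31 to 4.69), and from 29.6 to 64.4 CPM in astrocytes, 2.17-fold (95% interval 1.97 to 2.40). It was at 315 and 327 CPM in fibroblasts, 1.04-fold (95% interval 0.864 to 1.25). Plac8, a small cysteine-rich protein expressed in leukocytes, went from 4.76 to 39.3 CPM in microglia, 8.26-fold (95% interval 6.73 to 10.2), beside the neutrophil genes that marked 1 and 52 barcodes of that class. The part of those barcodes in the Plac8 values was not tested. Plac8 rested on few UMIs in several classes and was called in 2 APOE4 classes.

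**Figure D3:**
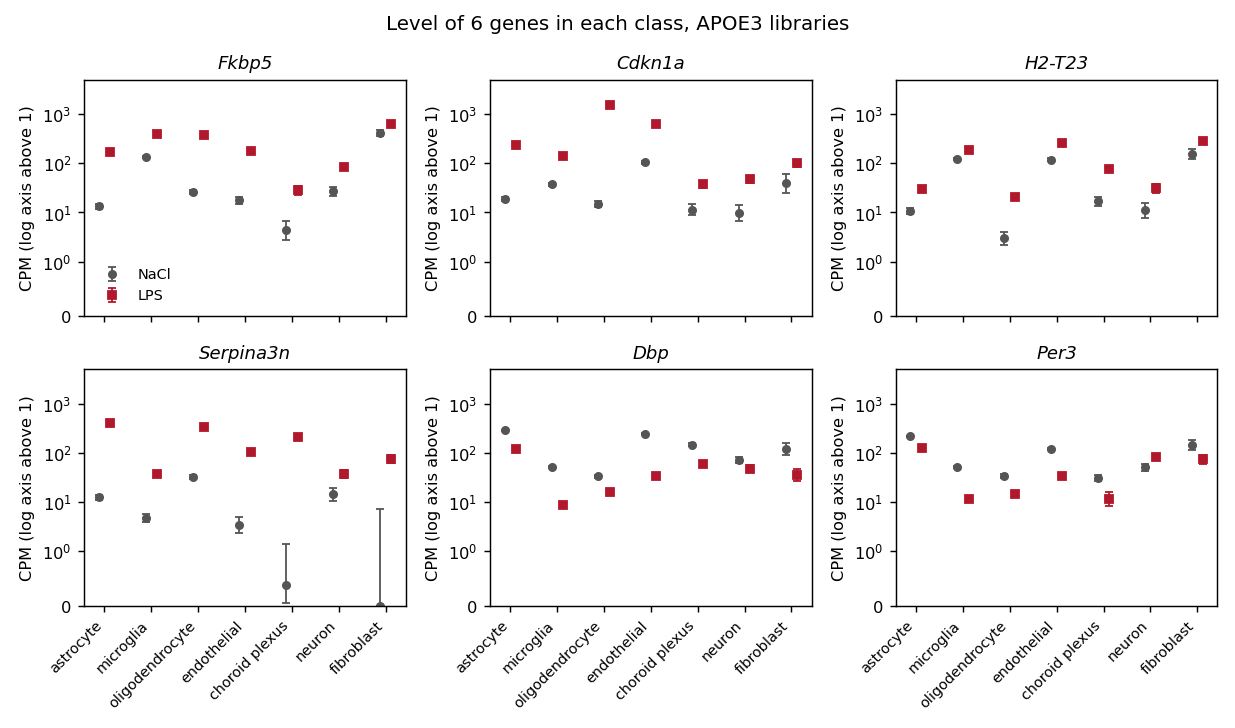
Level in CPM (y axis, linear near 0 and logarithmic above) of 6 genes in each class (x axis) in the APOE3 NaCl and LPS libraries, with exact Poisson 95% intervals of the UMI count as error bars. Cdkn1a in oligodendrocytes goes from 15.1 to 1556 CPM, the widest gap between the libraries for that gene.

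Among genes lower across classes, 3 belong to the circadian clock. Dbp, a clock output transcription factor driven by CLOCK and BMAL1, went from 244 to 33.9 CPM in endothelial cells, 7.19-fold (95% interval 6.47 to 8.01) lower, and from 52.3 to 8.86 CPM in microglia, 5.90-fold (95% interval 5.28 to 6.60) lower. It went from 290.0 to 121 CPM in astrocytes, 2.40-fold (95% interval 2.29 to 2.52) lower, and from 148 to 59.1 CPM in the choroid plexus, 2.5-fold (95% interval 2.14 to 2.94) lower. Oligodendrocytes went from 33.3 to 16.1 CPM, 2.07-fold (95% interval 1.79 to 2.39) lower, fibroblasts from 122 to 36.4 CPM, 3.34-fold (95% interval 2.27 to 4.95) lower, and neurons from 72.7 to 48.0 CPM, 1.51-fold (95% interval 1.22 to 1.88) lower. In the APOE4 pair Dbp was lower in all 6 classes, by 7.29-fold in endothelial cells, 2.98-fold in microglia and 1.51-fold in neurons. Ciart, a repressor of the same activators, went from 48.7 to 13.6 CPM in endothelial cells, 3.58-fold (95% interval 2.98 to 4.31) lower, and from 30.1 to 15.9 CPM in astrocytes, 1.89-fold (95% interval 1.65 to 2.18) lower. It was not measured in fibroblasts. The clock gene Per3 went from 52.1 to 11.6 CPM in microglia, 4.51-fold (95% interval 4.07 to 4.99) lower, and from 121 to 33.9 CPM in endothelial cells, 3.57-fold (95% interval 3.18 to 4.01) lower. In neurons Per3 went the other way, from 51.2 to 83.8 CPM, 1.64-fold (95% interval 1.34 to 2.01) higher, whereas APOE4 neurons went from 60.6 to 48.5 CPM. Labels give no time of day for either group, so a difference in the hour of death and the treatment cannot be told apart.

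The other broad lower genes have unlike roles. Gamt, which completes the synthesis of creatine, went from 152 to 56.0 CPM in oligodendrocytes, where it was highest, 2.72-fold (95% interval 2.53 to 2.93) lower, and from 27.3 to 10.5 CPM in astrocytes, 2.61-fold (95% interval 2.21 to 3.08) lower. Col27a1, a fibrillar collagen chain, went from 157 to 57.1 CPM in microglia, 2.76-fold (95% interval 2.62 to 2.90) lower. Snhg9, a non-coding small nucleolar RNA host gene, went from 61.9 to 26.8 CPM in astrocytes, 2.31-fold (95% interval 2.08 to 2.56) lower, and Snx32, a sorting nexin, from 66.6 to 39.8 CPM, 1.67-fold (95% interval 1.53 to 1.83) lower. Pabpc4, a poly(A)-binding protein, went from 49.5 to 27.1 CPM in neurons, 1.83-fold (95% interval 1.39 to 2.42) lower, and Serf1 from 18.9 to 6.83 CPM in microglia, 2.76-fold (95% interval 2.38 to 3.21) lower. The mitochondrially encoded mt-Atp8 went from 237 to 88.5 CPM in endothelial cells, 2.67-fold (95% interval 2.48 to 2.88) lower, and mt-Nd4l from 546 to 246 CPM, 2.22-fold (95% interval 2.12 to 2.33) lower. Both overlap a neighbouring mitochondrial gene. The median share of mitochondrial UMIs per cell was higher in LPS in all 7 classes, for example 3.16% and 4.64% in astrocytes and 1.31% and 2.75% in microglia.

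Some genes were higher in the sums of all classes only where no allowance for free RNA was made. With none, 11 genes were at least 2-fold higher in all 7 classes (0.131%): Lcn2, Saa3, Pglyrp1, Ifitm1, Ifitm2, Ifitm3, Serpina3n, Ctla2a, Apod, Cdkn1a and C4b. Lcn2, a siderophore-binding acute-phase protein, went from 0 to 11385 CPM in fibroblasts, at least 1902-fold higher, and from 20.3 to 2713 CPM in endothelial cells, 134-fold (95% interval 115 to 156). It reached 329.6 CPM in astrocytes, under a source-matched allowance of 627, and 194 CPM in oligodendrocytes, against an allowance of 193. Saa3, an acute-phase apolipoprotein of macrophages and stroma, went from 0 to 4231 CPM in fibroblasts and from 0.588 to 1859.8 CPM in microglia, 3161-fold (95% interval 1809.6 to 6118). Its 158 CPM in astrocytes and 57.3 CPM in the choroid plexus lay under allowances of 233 and 656. Apod, a lipocalin, went from 2457 to 14829.5 CPM in oligodendrocytes, 6.03-fold (95% interval 5.97 to 6.10), and from 2294 to 6975 CPM in fibroblasts, 3.04-fold (95% interval 2.86 to 3.23), with every other class under the allowance. Ctla2a, a protease inhibitor, went from 1339 to 14429.7 CPM in endothelial cells, 10.8-fold (95% interval 10.6 to 11), and was under the allowance in the other 6 classes. The 1 gene lower in all 7 without an allowance (0.0119%) was Itm2a, one of the endothelial marker genes, which went from 2919 to 310.1 CPM in endothelial cells, 9.41-fold (95% interval 9.10 to 9.74) lower. For a gene under the allowance, a change within the class and free RNA of the source cannot be told apart.

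Medians of the log2 ratio over 16 gene lists varied between classes, and some lists, such as the acute-phase list, were above 0 in all 7. Some broad genes, such as H2-T23, Cdkn1a and Dbp, are members of these lists. The lists overlap: Lcn2 is in both the glucocorticoid and the acute-phase list, and Rhob in both the glucocorticoid and the immediate-early list. Counts of list members called are given under the first allowance and then, where stated, under the source-matched one, both at 2-fold. The medians are over all measured members, with no allowance for free RNA. In a median, a change within the class and free RNA from other cells cannot be told apart. The log2 ratio of CPM + 1 of all measured genes had a median between -0.19 and -0.05 over the classes. Of 28 glucocorticoid-responsive genes, 19 were higher in oligodendrocytes (median 1.77), 7 in endothelial cells (0.71), 5 in astrocytes (0.91) and 3 in microglia (0.90). In fibroblasts 6 of 24 were (0.47), in neurons 3 of 26 (0.52) and in the choroid plexus 0 of 26 (0.52). With the source-matched allowance the counts were 20 in oligodendrocytes, 11 in astrocytes, 10 in microglia, 9 in endothelial cells, 8 in fibroblasts, 6 in the choroid plexus and 5 in neurons. Oligodendrocytes led under both allowances, and the order of the other classes differed. Plin4, a lipid droplet coat protein, went from 17.6 to 201 CPM in oligodendrocytes, 11.4-fold (95% interval 10.1 to 13.0), and from 3.32 to 56.6 CPM in astrocytes, 17.0-fold (95% interval 13.4 to 22). Sult1a1, a sulfotransferase, went from 1.79 to 61.1 CPM in oligodendrocytes, 34.2-fold (95% interval 23.4 to 52.1), but from 40.2 to 29.0 CPM in endothelial cells, 1.39-fold (95% interval 1.19 to 1.62) lower and not called. Tsc22d3, the glucocorticoid-induced leucine zipper, was called in no class at 2-fold, with 1.67-fold in astrocytes and 1.99-fold lower in fibroblasts. Rhob, a GTPase of the same list, was called lower in microglia, from 1539 to 612 CPM, 2.52-fold (95% interval 2.48 to 2.55). Of 16 growth arrest and p53 target genes, 8 were higher in oligodendrocytes (median 0.64) under either allowance, and in any other class at most 1 under the first and 2 under the source-matched one.

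Interferon-stimulated genes had a different order of classes. Of those measured, 19 of 29 were higher in fibroblasts (median 1.75) and 13 of 31 in microglia (1.45). In the choroid plexus 2 of 26 were (0.97), in astrocytes 3 of 30 (0.89) and in oligodendrocytes 5 of 27 (0.88). In neurons 0 of 23 were higher (0.26) and 1 lower, and in endothelial cells 2 of 31 were higher (0.13). With the source-matched allowance 20 were higher in fibroblasts and 20 in microglia, 15 in oligodendrocytes, 12 in astrocytes, 9 in the choroid plexus, 4 in neurons and 2 in endothelial cells. Resting levels in endothelial cells were high for some members and not for others, and their part in the ratios was not tested. Sp100, a nuclear body protein, was at 201 CPM in NaCl and 138 in LPS in endothelial cells, against 20.1 and 63.5 in microglia. Isg15, the ubiquitin-like modifier, went from 74.1 to 119.9 CPM in endothelial cells, 1.62-fold, and from 73.8 to 583 CPM in fibroblasts, 7.89-fold (95% interval 5.68 to 11.3). Ifit1, a sensor of viral RNA, went from 107 to 89.9 CPM in endothelial cells, 1.20-fold lower, and from 31.9 to 335 CPM in fibroblasts, 10.5-fold (95% interval 6.39 to 18.5). Ifi27l2a went from 61.9 to 362 CPM in microglia, 5.86-fold (95% interval 5.53 to 6.20), and from 182 to 955 CPM in fibroblasts, 5.26-fold (95% interval 4.25 to 6.58), and was at 40.0 and 42.4 CPM in endothelial cells. The interferon-inducible GTPases had a median of 1.07 in fibroblasts, with 7 of 13 higher, and of -0.19 in endothelial cells, with 1 of 15 higher and 1 lower, the same counts as with the source-matched allowance. Iigp1, a GTPase that attacks the vacuoles of intracellular parasites, went from 1.99 to 90.7 CPM in fibroblasts, 45.5-fold (95% interval 8.01 to 1809), and from 57.3 to 38.0 CPM in endothelial cells, 1.51-fold lower. MHC class I presentation genes had medians from 0.16 in neurons to 0.76 in the choroid plexus, with 4 of 17 called higher in fibroblasts and 0 or 1 in each other class. That lead held only under the first allowance: with the source-matched one 7 were higher in the choroid plexus, 5 each in astrocytes, oligodendrocytes and fibroblasts, 3 each in endothelial cells and neurons, and 2 in microglia. The share of fibroblasts with a second gene set was 6.90% in NaCl and 19.5% in LPS, and its part in the fibroblast values was not tested.

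NF-kB subunits and feedback inhibitors had most calls in endothelial cells. There 7 of 16 were higher (median 1.24), against 3 of 16 in microglia (0.76), 1 of 12 in fibroblasts (0.81), 1 of 14 in oligodendrocytes (0.19) and 0 in the other 3 classes. With the source-matched allowance the counts were 9 in endothelial cells, 4 in microglia, 3 in fibroblasts, 2 in oligodendrocytes and 1 in each other class. Mural cell genes marked 232 of 1187 endothelial barcodes in NaCl and 351 of 1226 in LPS, and their part in the endothelial values was not tested. Icam1, the adhesion molecule that leukocytes bind, went from 21.3 to 123 CPM in endothelial cells, 5.76-fold (95% interval 4.92 to 6.77), and from 129 to 229 CPM in microglia, 1.78-fold. Bcl3, a nuclear co-regulator of NF-kB, went from 4.90 to 29.1 CPM in microglia, 5.94-fold (95% interval 4.85 to 7.35), and from 9.07 to 30.6 CPM in endothelial cells, 3.38-fold (95% interval 2.63 to 4.39). The subunit Rela was at 53.4 and 76.1 CPM in endothelial cells, 1.43-fold, and Nfkb1 at 236 and 243 CPM in microglia, 1.03-fold. Neither subunit was called in any class. Nfkbia, the main inhibitor, was called higher in oligodendrocytes, from 56.1 to 254 CPM, 4.53-fold (95% interval 4.21 to 4.88).

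**Figure D4:**
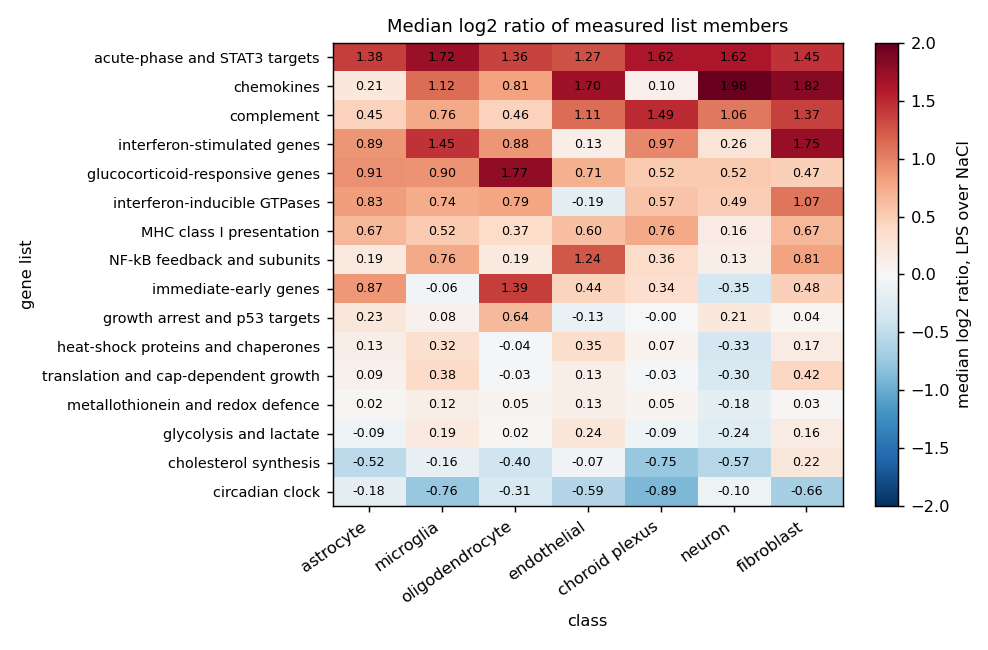
Median log2 ratio of CPM + 1 (LPS over NaCl, APOE3) of the measured members of each of 16 gene lists (rows) in each class (columns). No allowance for free RNA was applied to these medians. Glucocorticoid-responsive genes are highest in oligodendrocytes (1.77), interferon-stimulated genes in fibroblasts (1.75) and NF-kB genes in endothelial cells (1.24).

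Secreted mediators were spread unevenly. Of measured chemokines, 8 of 16 were higher in microglia (median 1.12). In endothelial cells the median was 1.70, or 1.59 with members at 0 UMIs set to 3 UMIs, but 1 of 16 was called higher and 2 lower. Ccl12, a ligand of the receptor CCR2, went from 371 to 951 CPM in microglia, 2.56-fold (95% interval 2.5 to 2.63). Cxcl12, a retention signal for leukocytes at the vessel wall, went from 1988 to 317 CPM in endothelial cells, 6.27-fold (95% interval 6.05 to 6.49) lower, and from 7.61 to 34.7 CPM in oligodendrocytes, 4.56-fold, not called. Cxcl14 was called higher in neurons, from 49.9 to 122 CPM, 2.45-fold (95% interval 2.02 to 2.97), but went from 69.9 to 52.5 CPM in APOE4 neurons. In neurons 7 chemokines were measured, with a median of 1.98 and 1 called, and in fibroblasts 8, with a median of 1.82 and 2 called. In fibroblasts that median was 1.53 with members at 0 UMIs set to 3 UMIs. Of complement genes, 5 of 13 were higher in fibroblasts (median 1.37) 2 of 15 in microglia (0.76), 1 of 15 in astrocytes (0.45) and 1 of 13 in oligodendrocytes (0.46). None was called in the choroid plexus (1.49), endothelial cells (1.11) or neurons (1.06), and 2, 2 and 1 were with the source-matched allowance, against 7 in fibroblasts and 7 in microglia. Cfb, the protease of the alternative pathway, went from 5.98 to 72.1 CPM in fibroblasts, 12-fold (95% interval 4.01 to 59.4). Acute-phase and STAT3 target genes had medians of 1.27 to 1.72 in all 7 classes, while higher calls were 0 of 18 in the choroid plexus, 0 of 19 in neurons (1 lower), 2 of 23 in astrocytes, 4 of 23 in oligodendrocytes, 5 of 23 in endothelial cells (2 lower), 7 of 23 in microglia and 7 of 17 in fibroblasts. With the source-matched allowance they were 2 in the choroid plexus, 8 in neurons, 7 in astrocytes, 11 in oligodendrocytes, 11 in endothelial cells, 13 in microglia and 10 in fibroblasts.

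Immediate-early genes, which stimulated cells transcribe within minutes and which cell dissociation also raises, had their highest median in oligodendrocytes and their lowest in neurons. In oligodendrocytes 11 of 22 were higher (median 1.39), and in neurons 0 of 21 were higher and 4 lower (-0.35). In astrocytes the median was 0.87 with 0 of 21 called, and 9 were higher with the source-matched allowance, against 14 in oligodendrocytes. Maff, a small bZIP factor, went from 0.662 to 29.0 CPM in oligodendrocytes, 43.9-fold (95% interval 23.7 to 92.0). Fos went from 357 to 877 CPM in oligodendrocytes, 2.46-fold (95% interval 2.38 to 2.53), from 150.0 to 69.6 CPM in neurons, 2.15-fold (95% interval 1.83 to 2.54) lower, and from 1832 to 1812 CPM in microglia. Egr1 went from 109 to 289.7 CPM in oligodendrocytes, 2.67-fold (95% interval 2.53 to 2.82), and from 194 to 93.1 CPM in neurons, 2.08-fold (95% interval 1.80 to 2.40) lower. In APOE4 neurons Fos was 1.55-fold higher and Egr1 2.11-fold lower. The part of dissociation in these values was not tested.

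Clock genes were lower in endothelial cells (6 of 19, 1 higher, median -0.59) and in microglia (4 of 19, -0.76), and in the choroid plexus 0 of 19 were called (-0.89). With the source-matched allowance 8 were lower in the choroid plexus, 8 in microglia and 7 in endothelial cells. In oligodendrocytes 2 were higher and 1 lower (-0.31), in fibroblasts 2 of 15 were lower (-0.66), in astrocytes 1 was higher and 1 lower (-0.18), and in neurons 1 was lower (-0.10). Npas2, a partner of BMAL1, was higher in astrocytes, from 86.8 to 177 CPM, 2.04-fold (95% interval 1.93 to 2.16). Of 24 cholesterol synthesis genes, 6 were lower in neurons (median -0.57), 1 in astrocytes (-0.52), 1 in oligodendrocytes (-0.40) and 1 in the choroid plexus (-0.75), and 0 in microglia (-0.16), while 2 of 21 were higher and 1 lower in fibroblasts (0.22). With the source-matched allowance 8 were lower in the choroid plexus and 6 in neurons. Insig1, which retains the sterol sensor in the endoplasmic reticulum, went from 61.6 to 26.7 CPM in neurons, 2.30-fold (95% interval 1.77 to 3.02) lower. Metallothionein and redox genes had medians of -0.18 to 0.13, with 4 of 18 higher and 1 lower in oligodendrocytes and 3 of 18 higher in fibroblasts. Mt2, a metal-binding metallothionein, went from 154 to 1184 CPM in fibroblasts, 7.71-fold (95% interval 6.13 to 9.82), from 235 to 817 CPM in endothelial cells, 3.48-fold (95% interval 3.32 to 3.66), and from 1220.3 to 1196 CPM in astrocytes. Heat-shock genes (medians -0.33 to 0.35), glycolysis genes (-0.24 to 0.24) and translation genes (-0.30 to 0.42) had at most 3 members called in any class, and at most 4 with the source-matched allowance. Slc2a3, a glucose transporter, went from 16.0 to 54.8 CPM in microglia, 3.42-fold (95% interval 3.05 to 3.84), and Slc16a1, a lactate transporter, from 302 to 123 CPM in endothelial cells, 2.46-fold (95% interval 2.31 to 2.62) lower.

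Genes that changed in one class only had to be called there, stay within 1.5-fold in every other measured class (at least 3), and differ from each of them beyond counting error. Under the first allowance, the genes higher in one class only numbered 113, and genes lower in one class only 134. Not all were measured in all 7 classes. Those measured in all were 30 of 46 higher in oligodendrocytes, 15 of 30 lower in microglia and 38 of 43 lower in fibroblasts. For the rest, a change in the unmeasured classes is not known. Oligodendrocytes had 46 higher (0.333% of the 13822 genes that could qualify) and 17 lower (0.123%), and endothelial cells 35 (0.253%) and 25 (0.181%). Microglia had 12 (0.084%) and 30 (0.21%), fibroblasts 10 (0.11%) and 43 (0.475%), and neurons 7 (0.0549%) and 15 (0.118%). The choroid plexus had 2 (0.0173%) and 3 (0.0259%), and astrocytes 1 (0.007%) and 1 (0.007%). With the source-matched allowance at 2-fold, oligodendrocytes had 50 (0.362%) and 24 (0.174%), and endothelial cells 44 (0.319%) and 36 (0.261%). Microglia then had 17 (0.119%) and 37 (0.259%), and fibroblasts 17 (0.188%) and 45 (0.497%). The choroid plexus had 8 (0.0692%) and 33 (0.285%), neurons 7 (0.0549%) and 17 (0.133%), and astrocytes 4 (0.028%) and 2 (0.014%). Astrocytes thus had the fewest under both allowances, although they formed the largest class in NaCl.

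In oligodendrocytes Cab39l, a scaffold of the kinase LKB1, went from 105 to 523 CPM, 4.97-fold (95% interval 4.71 to 5.24), and 4.91-fold in the APOE4 pair. Smox, which oxidises spermine, went from 32.6 to 120.2 CPM, 3.68-fold (95% interval 3.34 to 4.07), and Adam15, a membrane metalloprotease, from 31.4 to 111 CPM, 3.54-fold (95% interval 3.20 to 3.92). Slc2a10, a glucose transporter, went from 0.0662 to 3.14 CPM on 1 and 58 UMIs, 47.4-fold (95% interval 8.17 to 1903). Among genes lower in oligodendrocytes only, Sec11c, a signal peptidase subunit, went from 954 to 328 CPM, 2.91-fold (95% interval 2.82 to 3.00) lower. Actb, the cytoskeletal actin often used as a reference gene, went from 4289 to 1586 CPM, 2.70-fold (95% interval 2.67 to 2.74) lower, and 2.34-fold lower in APOE4. In the APOE4 pair 32 of the 46 higher genes were at least 2-fold higher in oligodendrocytes, where 7.51% of all measured genes were.

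In endothelial cells Adamts4, a protease of proteoglycans, went from 4.59 to 80.3 CPM, 17.5-fold (95% interval 12.6 to 24.9), and 26.7-fold in APOE4. Sh2d4b went from 3.51 to 38.5 CPM, 11-fold (95% interval 7.54 to 16.6), and Hid1 from 8.10 to 48.1 CPM, 5.94-fold (95% interval 4.61 to 7.76). Dpp4, a membrane peptidase that inactivates incretins and chemokines, went from 26.5 to 1.71 CPM, 15.5-fold (95% interval 9.87 to 25.5) lower, and 11.6-fold lower in APOE4. Bsg (CD147), a partner of lactate transporters and a classic surface protein of brain endothelium, went from 5266 to 1780.1 CPM, 2.96-fold (95% interval 2.91 to 3.01) lower. In APOE4, 20 of 34 measured higher genes and 19 of 22 lower genes passed 2-fold in endothelial cells, where 8.73% and 5.88% of all genes did.

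In microglia Rcan1, an inhibitor of calcineurin, went from 30.4 to 109 CPM, 3.59-fold (95% interval 3.30 to 3.90), and Cpd, a carboxypeptidase of the secretory pathway, from 65.1 to 173 CPM, 2.66-fold (95% interval 2.51 to 2.82). Man2a1, a Golgi mannosidase, went from 50.8 to 134 CPM, 2.64-fold (95% interval 2.48 to 2.83). Rcbtb2 went from 164 to 63.9 CPM, 2.56-fold (95% interval 2.44 to 2.69) lower, and Cd276, an immune checkpoint protein of the B7 family, from 11.1 to 3.43 CPM, 3.24-fold (95% interval 2.65 to 3.97) lower. In APOE4 microglia 8 of the 12 higher and 22 of the 30 lower genes passed 2-fold, where 12.7% and 8.26% of all genes did. The 1 astrocyte gene on each side was Far1, an enzyme of ether lipid synthesis, from 53.9 to 149 CPM, 2.75-fold (95% interval 2.57 to 2.95), and Hopx, a homeodomain-only protein of neural stem cells and astrocytes, from 187 to 84.3 CPM, 2.22-fold (95% interval 2.09 to 2.35) lower.

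In neurons Jph1, a junctophilin, went from 37.2 to 76.7 CPM, 2.06-fold (95% interval 1.64 to 2.60), with a ratio of 1.15-fold in APOE4. Kcnh8, a potassium channel, went from 55.7 to 11.3 CPM, 4.94-fold (95% interval 3.42 to 7.33) lower, and 1.27-fold lower in APOE4. Agrp, the orexigenic peptide of a small group of hypothalamic neurons, went from 25.8 to 7.09 CPM, 3.63-fold (95% interval 2.24 to 6.12) lower, but from 6.48 to 284 CPM in APOE4. With 351 and 333 neurons, the kinds of neuron captured and a change per cell cannot be told apart. Of the neuron genes, 0 of 7 higher and 1 of 14 lower passed 2-fold in the same direction in APOE4, where 4.38% and 2.80% of all genes did. In the choroid plexus Ldhd, a mitochondrial D-lactate dehydrogenase, went from 2.48 to 22 CPM, 8.85-fold (95% interval 4.87 to 17.4), and 10.8-fold in APOE4, while Nfe2l1, a factor of proteasome genes, went from 183 to 70.6 CPM, 2.58-fold (95% interval 2.24 to 2.99) lower, with a ratio of 1.02-fold in APOE4. Both higher choroid plexus genes passed 2-fold in APOE4, and 0 of 1 measured lower gene did. In fibroblasts Abi1, an actin regulator, went from 209 to 671 CPM, 3.20-fold (95% interval 2.62 to 3.96), Lgals9, a galectin, from 31.9 to 105 CPM, 3.29-fold, and Atp1b1, a sodium pump subunit, from 1480.2 to 536 CPM, 2.76-fold (95% interval 2.49 to 3.06) lower. Fibroblasts had no APOE4 comparison.

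**Figure D5:**
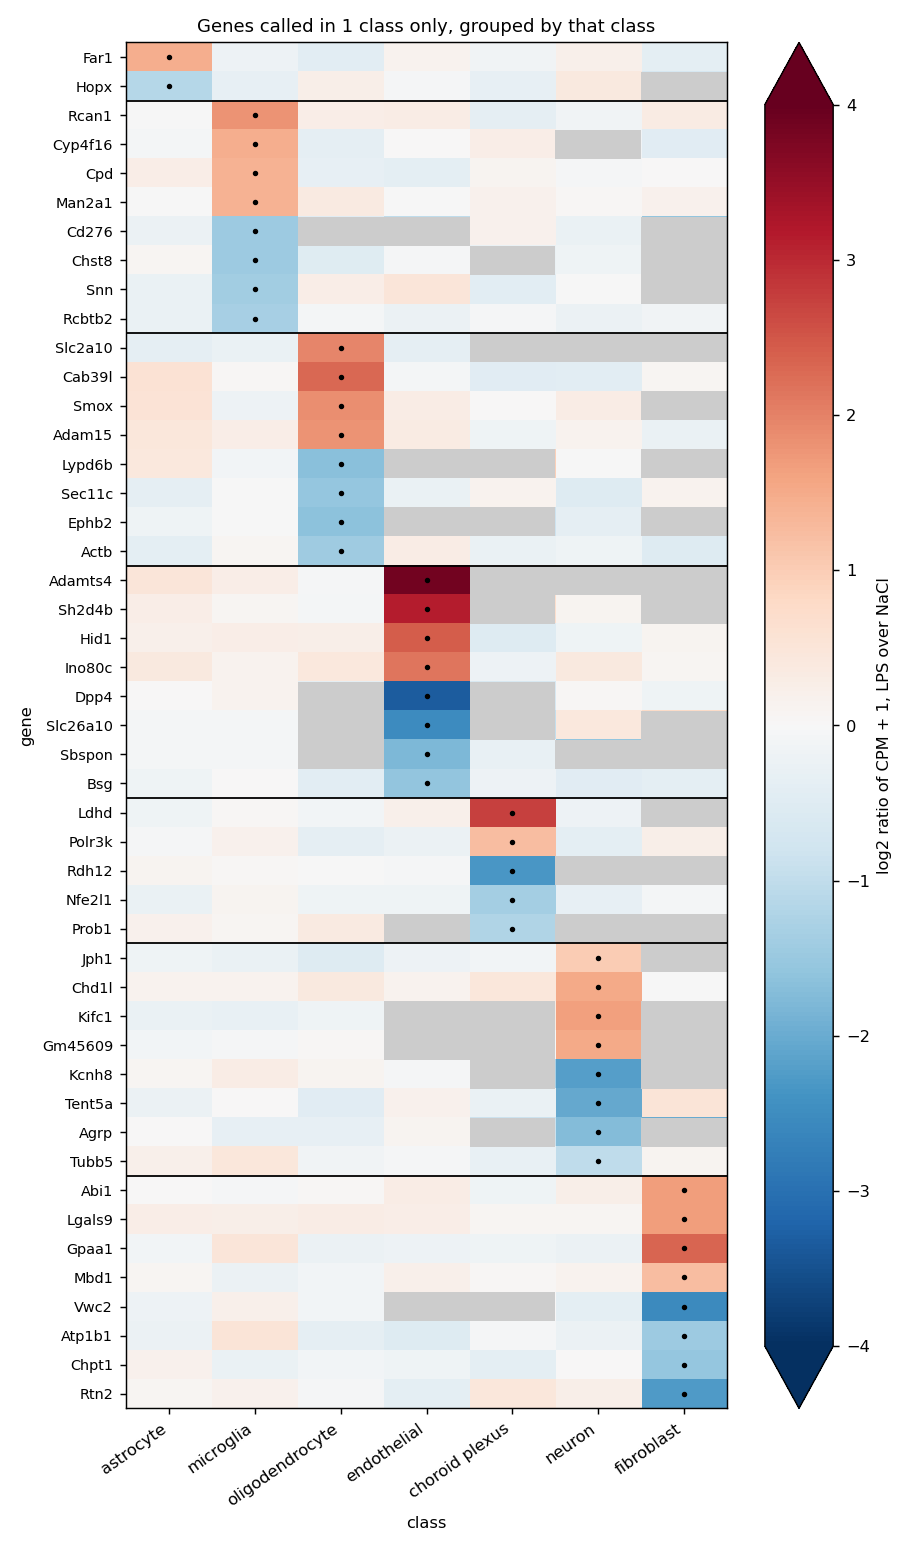
Log2 of the ratio of CPM + 1 between APOE3 LPS and NaCl for the named genes that changed in one class only (rows), in all 7 classes (columns), with colours capped at 4 in each direction, grey for not measured and dots for calls at 1.5-fold with the source-matched allowance. In the gene's own class, colour is strong for the largest changes, such as Adamts4 and Dpp4 in endothelial cells. It is paler for genes near the 2-fold limit, such as Jph1 in neurons and Hopx in astrocytes. Ratios in the other measured classes are within 1.5-fold.

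As a check of the genotype, reads assigned to the mouse gene Apoe gave 257 CPM in astrocytes in NaCl and 249.7 in LPS, 1.03-fold lower, with an interval that included 1. Since the coding sequence is human in these mice, those UMIs cannot be read as the level of human APOE.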

How the data were processed

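Single-cell 3' libraries (10x Genomics, v3.1 chemistry, per the labels' protocols) were made from 4 groups with 1 library each, and groups were taken from the sample titles. The values are the authors' deposited UMI counts, whole numbers for each gene in each barcode. Per the file headers they come from Cell Ranger 7.0.1, and the build is mm10 per the submitters' processing notes. The files hold 32285 genes, and 78 share their symbol with another row and were kept as separate rows.

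Members and gene lists were chosen with earlier results of these data known. After the limits of 1000 UMIs and 20% mitochondrial content, doublets were not removed, and the counts of each class were added up per library. Ratios of CPM have exact conditional binomial (Clopper-Pearson) 95% intervals, and single sums exact Poisson ones. Intervals and floors (3 UMIs) cover counting error only. Log2 values are of CPM + 1, which understates changes of low genes. No test, p-value or standard error was computed, since each group is 1 library. The source-matched allowance, its combination with a 1.5-fold limit and the limit of 6 classes were chosen after the counts had been seen. Genes were named by rule: those called in all or all but 1 class, which under the first allowance gave none, and, per class, the 4 one-class genes with the largest lower bound (for lower genes, the most extreme upper bound) of the interval. The rule also took, per list, the 2 members with the highest and the 2 with the lowest median over classes, and the 8 largest opposite changes. Genes called in 4 or 5 classes, and those called under the added rule or with no allowance, were named after their values were seen. Sult1a1, Isg15, Ifit1, Nfkbia, Fos and Egr1 were likewise named after their values were seen. Mx1, Mx2, Serpina3h and Cxcl11 are not analysed here. Scripts used Python 3.11.15, numpy 2.4.6, scipy 1.17.1, pandas 2.3.3 and scanpy 1.11.5 (for Scrublet). The calling code was tested on simulated data that held no free RNA and with no allowance, so neither allowance was tested in that way.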

Additional observations from a re-analysis of the deposited data

Results flagged for a closer look

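In 132 of the 32285 genes in the files, a class with a higher call stood beside a class with a lower call under the first allowance. That allowance called from 0.271% to 4.18% of the measured genes of a class in each direction. How many genes with opposite calls such shares alone would give was not computed, so 132 is a count only. The 8 with the largest difference are given here. The differences are of log2 ratios of CPM + 1, and none was tested, since each class has 1 library per group.

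Gpx3, a secreted glutathione peroxidase, went from 9.55 to 405 CPM in the choroid plexus and from 24.1 to 9.02 CPM in neurons, a difference of 6.59. In APOE4 neurons it was 3.20-fold higher. Rgs16, a regulator of G protein signalling, went from 0 to 15 CPM in fibroblasts on 21 UMIs and from 22.2 to 3.22 CPM in neurons, a difference of 6.46. Itih5, which binds hyaluronan, went from 19.9 to 198 CPM in oligodendrocytes and from 682 to 121 CPM in endothelial cells, a difference of 5.75, with 10.3-fold higher and 5.93-fold lower in the APOE4 pair. 1700042O10Rik was called higher in oligodendrocytes and lower in endothelial cells, a difference of 5.51. Adamtsl2, a matrix protein, went from 0.427 to 2.96 CPM in astrocytes and from 14.3 to 0.245 CPM in endothelial cells, a difference of 5.09. Its levels in NaCl astrocytes and LPS endothelial cells rest on few UMIs. Asb4 went from 15.8 to 69.1 CPM in endothelial cells and, on few UMIs, from 6.52 CPM to 0 in neurons, a difference of 4.97. In APOE4 neurons Asb4 was 12.6-fold higher. Emp1, a membrane protein, went from 10.6 to 165 CPM in endothelial cells and from 59.8 to 27.8 CPM in fibroblasts, a difference of 4.91. Ddc, the decarboxylase that makes dopamine and serotonin, went from 90.3 to 618 CPM in oligodendrocytes and from 175 to 44.2 CPM in endothelial cells, a difference of 4.73, with 4.66-fold higher and 4.32-fold lower in the APOE4 pair.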

How the results depend on the processing

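No paired analysis was possible because each group has 1 library. The numbers of genes higher in all classes and genes lower in all classes were 0 in each direction under every planned setting except no allowance (11 higher, 1 lower). With the added source-matched allowance and a 1.5-fold limit they were 2 and 1, and with fibroblasts also left out 4 and 4. The genes higher in one class only numbered 113 and genes lower in one class only 134. A 1.5-fold limit gave 290 and 283, no allowance 178 and 230, and the source-matched allowance with 1.5-fold 343 and 396. With no UMI minimum the lower count was 87. The counts of broad genes, 16 higher and 11 lower, were 7 and 11 without Scrublet's calls (7 and 9 of the original genes), 4 and 1 after thinning (0 and 1 of them), which leaves fewer UMIs per gene, and 21 and 7 with ratios centred on the class median (16 and 7 of them). Scrublet marked 1374 barcodes (9.43%) in NaCl and 1292 (8.50%) in LPS. Of 1890 alternative values of named genes, 1584 moved by less than their counting error, 303 moved and 3 no longer had their sign. These were all in fibroblasts after thinning: Pabpc4 reversed to a log2 of 1.45, while Serf1 and Rgs16 came to 0, with no difference left. Of 889 alternative list medians, 780 moved by less than 0.25, 108 by more and 1, chemokines in fibroblasts, reversed to -0.25 after thinning. A reversal was counted only where the main median was at least 1.5-fold in size. Smaller medians that changed sign are within the other counts. At the depth of 1000 UMIs per cell, 8 of the 16 higher and 4 of the 11 lower broad genes were measured in at least 6 classes.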
